A study of Mus musculus with 6 samples.

Results

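Interferon-stimulated and class I antigen presentation genes were examined in the left ventricular apex of mice with an induced loss of PTIP. The members were 55 genes taken from a fixed list of interferon receptors, transcription factors, interferon-induced effectors and antigen processing genes. Of these, 51 had at least 1 probe set tied to that gene alone, among 18193 genes so measured in the series. The only probe sets of Isg15 and Gbp4 were tied to several genes, and no probe set was named for Ifi44 or Gbp5, so none of these 4 has a value here. The measured members comprised 9 receptors and transcription factors, 27 genes known mainly as type I interferon-stimulated genes, 10 known mainly as interferon-gamma-inducible and 5 of antigen presentation. The groups overlap in biology, since many of these genes answer to both kinds of interferon.

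The 3 PTIP KO mice carried 1 floxed and 1 null allele of Paxip1, the gene of PTIP, and a Cre recombinase transgene, fused to a modified estrogen receptor and driven by the promoter of alpha myosin heavy chain. The 3 PTIP+ mice carried 1 floxed and 1 wild-type allele, and no Cre is named for them. All 6 were female littermates aged 8 weeks on a mixed C57B6 and B6129 background, and all received tamoxifen at 20 mg/kg. The labels place the samples 5 days after tamoxifen and elsewhere give 5 days as the length of treatment, so the interval is not settled. The promoter is active in cardiomyocytes, so other cells of the apex keep the floxed allele. Effects of Cre, of the null allele and of the induced deletion cannot be told apart in this design. Each mouse gave 1 array, and values are on the log2 scale, on which the median of all probe set means was 5.19.

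Type I interferons bind the receptor chains Ifnar1 and Ifnar2, and interferon-gamma binds Ifngr1 with a partner chain. Janus kinases then phosphorylate STAT proteins, which enter the nucleus with or without Irf9 and bind the interferon-stimulated response element or the gamma-activated site in promoters. The induced genes block viral RNA and proteins, attack pathogen vacuoles, and raise the loading of peptides on MHC class I molecules, which nearly all cells of the heart can display.

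Between-array correlations ran from 0.989 to 0.995. All 3 PTIP KO mice lay below all 3 PTIP+ mice on each of the 4 Paxip1 probe sets, of which 3 passed the limma test with all mice and 0 with any 1 mouse left out, and the labels do not say which exons were deleted. Control probe sets at the 3′ end of actin exceeded those at its 5′ end, a gap that widens with RNA degradation, by 1.45 to 1.64 in PTIP KO and 1.17 to 1.85 in PTIP+, highest in PTIP+ 1. Cardiomyocyte markers were bright in every mouse, with none of 9 passing, and Tnnt2, a troponin, averaged 13.50 in PTIP KO and 13.54 in PTIP+.

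None of the 51 members passed limma's test, adjusted over all probe sets, of which 0.191% passed (0.286% of genes). Their limma adjusted p ran from 0.311 to 0.985. By sign, 41 members were higher in PTIP KO and 10 were lower, against 55.1% of all genes higher. At an unadjusted limma p under 0.05 in either direction were 8 members (9.27% of all genes): 7 members were higher (5.47% of all genes were) and 1 was lower (3.8% of all genes). All 3 PTIP KO mice lay above all 3 PTIP+ mice for 13 members (9.44% of all genes) and below them for 1 (6.57% of all genes). The median log2 difference of the members was 0.23, with a range from -0.45 to 0.68, and that of all genes was 0.02. For a single gene, an exact permutation test of 3 against 3 mice cannot give a two-sided p below 0.1.

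**Figure D1:**
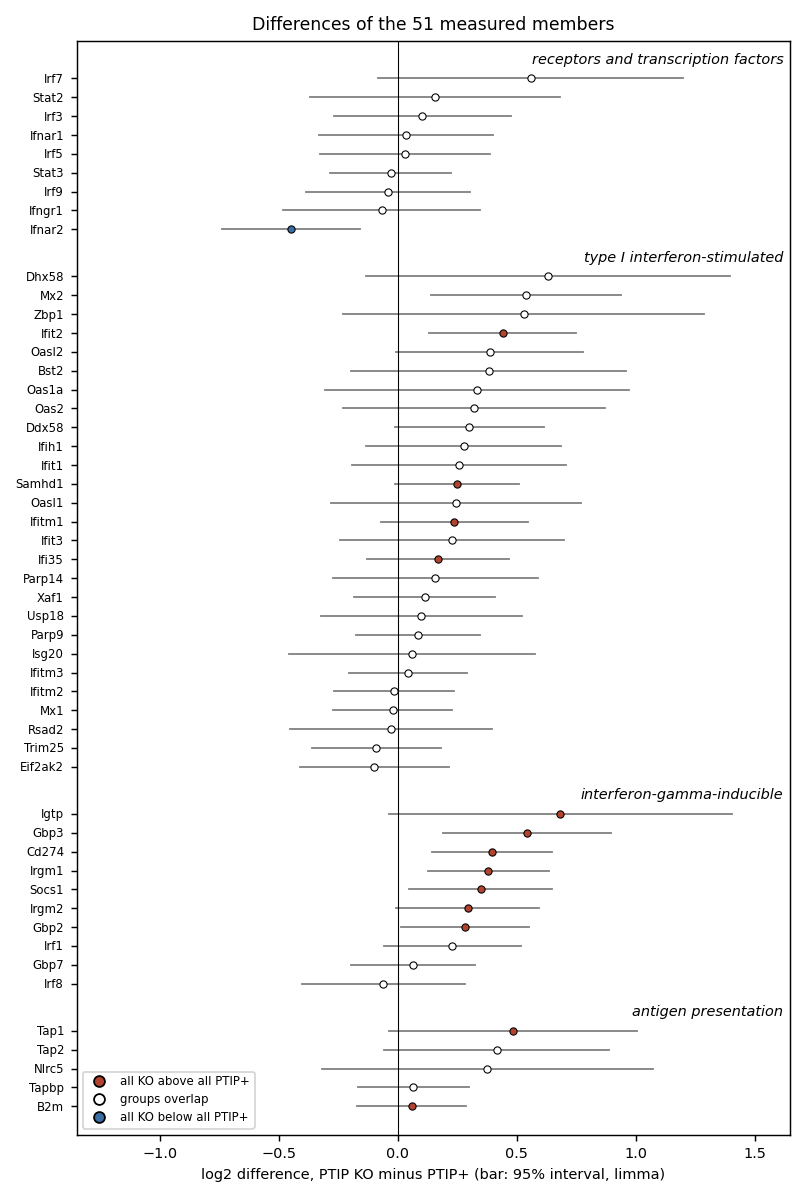
Log2 difference, PTIP KO minus PTIP+, of each of the 51 measured members on the x axis, with genes by group down the page. Points are differences and bars are 95% intervals from limma. Red points mark genes with all PTIP KO mice above all PTIP+ mice, blue the reverse, and open points overlapping groups. Ifnar2 at -0.45 is the single blue point, and 7 of the 10 interferon-gamma-inducible genes are red.

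The interferon-gamma-inducible group had the highest share of members with separated groups. Of its 10 measured genes, 9 were higher in PTIP KO and 1 lower. At an unadjusted limma p under 0.05, 5 were higher (5.47% of all genes were). All PTIP KO mice lay above all PTIP+ mice for 7 (9.44% of all genes). The median difference of the group was 0.32.

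Cd274, which encodes the T cell inhibitory ligand PD-L1, read 8.70, 8.67 and 8.55 in PTIP KO and 8.30, 8.29 and 8.15 in PTIP+. The groups did not overlap, and the difference was 0.40 (SE 0.11, limma adjusted p = 0.311), the smallest p among the members. Gbp3, a guanylate-binding GTPase that acts on pathogen vacuoles, read 8.43, 8.39 and 8.30 in PTIP KO and 8.03, 7.94 and 7.53 in PTIP+. All 3 PTIP KO values were close together and the spread lay in the PTIP+ mice, where PTIP+ 3 was lowest. Gbp3 averaged 8.37 ± 0.07 in PTIP KO and 7.83 ± 0.27 in PTIP+ (SD, n = 3 each), a difference of 0.54 (SE 0.15, limma adjusted p = 0.318). Gbp2, of the same GTPase family, read 8.82, 8.63 and 8.86 in PTIP KO and 8.53, 8.39 and 8.53 in PTIP+. Its second probe set, which ends in _x_at, gave the same difference of 0.28 and separate groups. Gbp7, also of that family and named beyond the rule, had a difference of 0.07 with a 95% interval from -0.20 to 0.33.

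Irgm1, an immunity-related GTPase, read 7.69, 7.68 and 7.68 in PTIP KO and 7.18, 7.41 and 7.32 in PTIP+. The 3 PTIP KO mice were nearly identical and all above the PTIP+ mice, with a difference of 0.38 (SE 0.11, limma adjusted p = 0.337). Irgm2, of the same family, read 9.97, 9.65 and 9.66 in PTIP KO and 9.48, 9.54 and 9.38 in PTIP+, a difference of 0.29 (limma adjusted p = 0.567). Igtp, the third family member here and named for its size after its values were seen, read 10.22, 9.03 and 9.08 in PTIP KO and 8.91, 8.76 and 8.61 in PTIP+. Its difference of 0.68 was the largest of all members (SE 0.31, limma adjusted p = 0.583) and was 0.29 without PTIP KO 1. Irgm2 likewise had 0.19 without that mouse, whereas Irgm1 kept 0.38.

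Socs1, which shuts off Janus kinases in a feedback loop, was the dimmest member. It read 3.54, 3.48 and 3.79 in PTIP KO and 3.14, 3.36 and 3.26 in PTIP+, a difference of 0.35 (SE 0.13, limma adjusted p = 0.469) at a level where RMA values say little about transcript amount. The remaining genes of the group, outside the naming rule, were Irf1 and Irf8. Irf1, the transcription factor most directly induced by interferon-gamma, had a difference of 0.23 (95% interval -0.06 to 0.52) with overlapping groups. Irf8, a factor of myeloid cells, was the only lower gene, at -0.06, and its dimmer second probe set had 0.30.

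**Figure D2:**
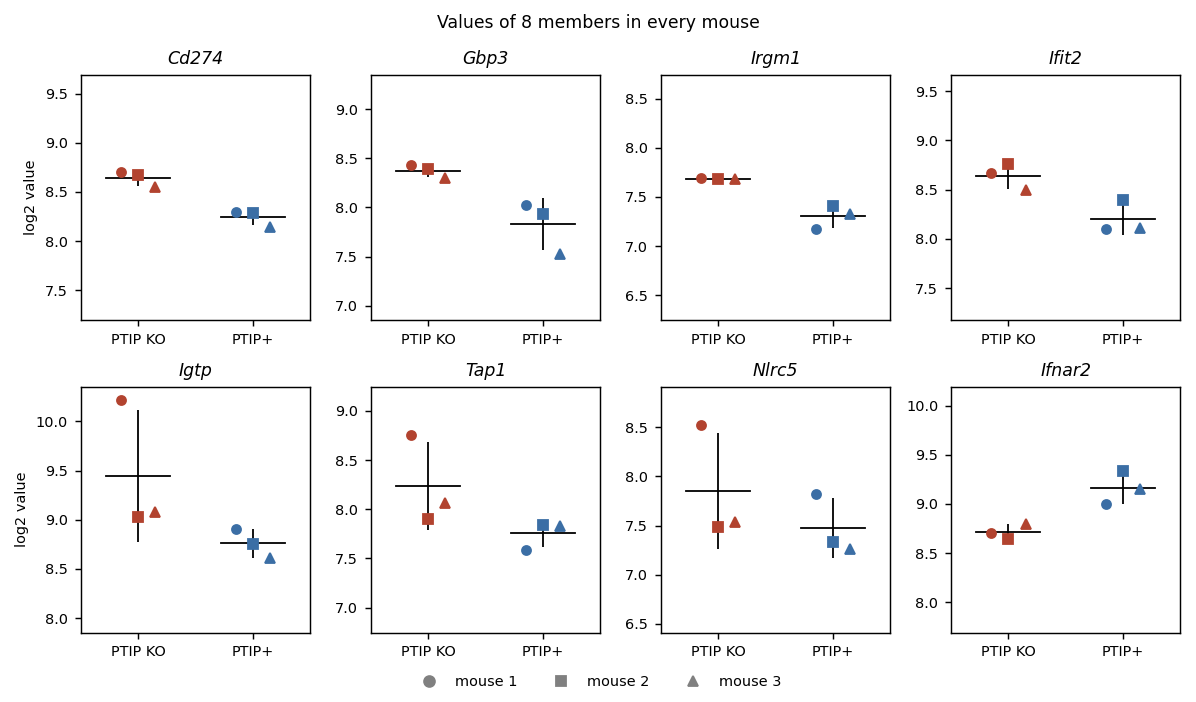
Log2 values of 8 members in every mouse, PTIP KO left and PTIP+ right, with the mean as a horizontal line and the SD as a vertical bar (n = 3 each); all panels span 2.5 log2 units, with different limits. In Cd274, Gbp3, Irgm1 and Ifit2 all PTIP KO mice are close together above PTIP+, in Igtp, Tap1 and Nlrc5 PTIP KO 1 stands above the other 2, and Ifnar2 is lower in PTIP KO.

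Promoters of several of these genes are shown because the group is defined by its response to factors that bind there. The RefSeq promoter table (GRCm38.p6) held 44 of the 55 members. In the 250 bases before the start, GAAA, any 2 bases and GAAA again, or TTTC, any 2 bases and TTTC on the other strand, the core of the interferon-stimulated response element, was found in 33.3% of the members' promoters and in 2.98% of all promoters. TTCNNNGAA, which reads alike on both strands and is the core of the gamma-activated site, was found in 25.5% of the members' promoters and in 7.02% of all. The first motif was present in 8 of 11 interferon-gamma-inducible genes, 7 of 21 type I genes, 1 of 9 receptor and factor genes and 1 of 3 antigen presentation genes. The lines below give the 150 bases before the start on the strand of the gene, 5′ to 3′, with matches to either motif in capitals. Matches of 1 motif may overlap each other. Gbp3 is at chr3:142559894-142560043 (plus strand), Irgm1 at chr11:48871421-48871570 (minus strand), Irgm2 at chr11:58214827-58214976 (plus strand), Igtp at chr11:58199406-58199555 (plus strand) and B2m at chr2:122147537-122147686 (plus strand).
Gbp3: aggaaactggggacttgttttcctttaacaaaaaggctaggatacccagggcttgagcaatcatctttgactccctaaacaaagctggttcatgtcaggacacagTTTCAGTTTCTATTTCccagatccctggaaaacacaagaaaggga
Irgm1: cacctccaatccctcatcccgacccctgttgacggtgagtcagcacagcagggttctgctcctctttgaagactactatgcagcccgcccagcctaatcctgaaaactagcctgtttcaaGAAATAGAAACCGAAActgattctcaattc
Irgm2: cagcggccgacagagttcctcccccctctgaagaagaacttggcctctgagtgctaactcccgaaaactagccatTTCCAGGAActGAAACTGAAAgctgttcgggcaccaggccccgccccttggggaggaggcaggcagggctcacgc
Igtp: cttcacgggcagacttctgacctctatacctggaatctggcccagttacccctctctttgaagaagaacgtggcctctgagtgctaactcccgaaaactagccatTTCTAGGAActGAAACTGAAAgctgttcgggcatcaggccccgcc
B2m: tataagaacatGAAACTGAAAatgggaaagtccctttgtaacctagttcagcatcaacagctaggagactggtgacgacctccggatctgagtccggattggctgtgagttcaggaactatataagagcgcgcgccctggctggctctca

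Gbp3 is listed with a second start, whose promoter held neither motif. Irgm2 and Igtp, which lie near each other on chromosome 11, share a run of 55 identical bases within their 250-base windows, and each has both motifs side by side. Measured members with the response element had a median log2 difference of 0.28 (15 genes, 13 higher), and those without it 0.11 (26 genes, 19 higher). The ranges of these 2 sets overlapped, from -0.03 to 0.68 and from -0.45 to 0.56. The sets also differ in make-up. The motif was in 8 of 11 interferon-gamma-inducible genes (group median difference 0.32) and in 1 of 9 receptor and factor genes (0.03). Motif and member group can therefore not be told apart in this contrast. The Cd274 window held neither motif, which says only that these letters are not in it.

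All 5 antigen presentation genes were higher in PTIP KO by sign, and 3 of them, Tap1, Tap2 and Nlrc5, were highest in PTIP KO 1. Tap1, 1 chain of the pump that moves peptides into the endoplasmic reticulum, read 8.75, 7.90 and 8.06 in PTIP KO and 7.59, 7.84 and 7.83 in PTIP+. The groups did not overlap, but PTIP KO 2 lay only just above the PTIP+ mice, and the difference of 0.48 (SE 0.22, limma adjusted p = 0.595) was 0.23 without PTIP KO 1. Tap2, the other chain of the pump, read 8.76, 7.99 and 8.32 in PTIP KO and 7.74, 8.06 and 8.02 in PTIP+. Its groups overlapped, and its difference of 0.42 was 0.22 without PTIP KO 1. Nlrc5, the transcriptional activator of class I genes, read 8.53, 7.49 and 7.54 in PTIP KO and 7.82, 7.34 and 7.26 in PTIP+. Only PTIP KO 1 lay above all PTIP+ mice, and the difference of 0.38 was 0.04 without it.

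The 2 brightest genes of the group barely varied between mice. B2m, the light chain of every class I molecule, read 12.56, 12.64 and 12.61 in PTIP KO and 12.53, 12.56 and 12.54 in PTIP+. The difference was 0.06 (SE 0.10, 95% interval -0.17 to 0.29), so the 3 separated PTIP KO values differ from PTIP+ by less than the error of the fit. Tapbp, tapasin, which bridges the peptide pump and the class I heavy chain, averaged 12.06 ± 0.04 in PTIP KO and 12.00 ± 0.05 in PTIP+ (SD, n = 3 each), a difference of 0.07 (95% interval -0.17 to 0.30). Its dimmer second probe set had 0.11.

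Genes around this group were taken from lists of the same pathway. Of 5 measured class I heavy chain genes none passed with limma and none had an unadjusted p under 0.05, and their median difference was 0.25. H2-K1, a classical class I heavy chain, read 11.61, 10.99 and 11.17 in PTIP KO and 10.53, 11.07 and 10.88 in PTIP+, a difference of 0.43 (limma adjusted p = 0.603). H2-D1, the other classical chain of this list, had 0.32, and H2-Bl was dim and lower at -0.19. PTIP KO 1 was the highest mouse for 4 of these 5. The heavy chain genes are close copies of one another, so their probe sets may share signal. Of 8 measured genes of class I loading and the immunoproteasome, none passed with limma, none had an unadjusted p under 0.05, and their median was -0.03. Psmb9 and Psmb8, catalytic subunits of the immunoproteasome, had 0.28 and 0.17, and Canx, calnexin, had -0.14 with all PTIP KO mice below PTIP+. Psmb10, the remaining catalytic subunit and named beyond the rule, had -0.12 with overlapping groups.

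Of the 27 type I interferon-stimulated genes, 22 were higher in PTIP KO and 5 lower. At an unadjusted limma p under 0.05, 2 were higher (5.47% of all genes were). All PTIP KO mice lay above all PTIP+ mice for 4 (9.44% of all genes). The median difference of the 27 was 0.24. Ifit2, which binds viral RNA and restrains its translation, read 8.67, 8.76 and 8.49 in PTIP KO and 8.10, 8.39 and 8.11 in PTIP+. The groups were separate and the difference was 0.44 (SE 0.13, limma adjusted p = 0.363), or 0.43 without PTIP KO 1. Mx2, a dynamin-like antiviral GTPase, read 4.88, 4.53 and 4.96 in PTIP KO and 4.09, 4.53 and 4.14 in PTIP+. It was dim and its groups met at 4.53, with a difference of 0.54 (SE 0.17, limma adjusted p = 0.401). Mx1, its relative and the dimmest gene of the group at a mean of 4.51, had -0.02. Oasl2, of the oligoadenylate synthetase family, read 7.79, 7.52 and 7.64 in PTIP KO and 7.57, 7.24 and 6.98 in PTIP+, a difference of 0.39 with the groups overlapping.

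The RIG-I family of RNA helicases, which sense viral RNA in the cytoplasm, had higher values in PTIP KO by sign on the brightest probe set of each gene, while a dim one of Dhx58 had -0.06. Ddx58, which encodes RIG-I, read 7.43, 7.20 and 7.43 in PTIP KO and 7.03, 7.24 and 6.90 in PTIP+. Its difference was 0.30 (SE 0.13, limma adjusted p = 0.575), with PTIP KO 2 just below PTIP+ 2, and its second probe set of similar brightness had 0.19. Dhx58, the regulatory relative LGP2, read 6.18, 5.29 and 5.51 in PTIP KO and 4.46, 5.02 and 5.60 in PTIP+. PTIP KO 1 was high and PTIP+ 1 low, with a difference of 0.63 (SE 0.33, limma adjusted p = 0.644), 0.37 without PTIP KO 1 and 0.35 without PTIP+ 1. Ifih1, which encodes MDA5 and is named beyond the rule to complete the family, averaged 8.12 ± 0.01 in PTIP KO and 7.84 ± 0.35 in PTIP+ (SD, n = 3 each), a difference of 0.28 (95% interval -0.13 to 0.69).

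Samhd1, a nucleotide hydrolase that starves viral replication, read 9.87, 9.90 and 9.88 in PTIP KO and 9.74, 9.48 and 9.67 in PTIP+. The difference was 0.25 (SE 0.11, limma adjusted p = 0.581), and the other 4 Samhd1 probe sets had the same sign, with 0.23 on the bright one. Ifitm3, which blocks viral entry at endosomes and was the brightest type I gene at a mean of 12.27, had a difference of 0.04 (95% interval -0.21 to 0.29). Beyond the naming rule, its relatives Ifitm2 and Ifitm1 had -0.02 and 0.24, the last with all PTIP KO mice above PTIP+. Ifi35, also named after its values were seen, was separate between the groups, at 0.17, and its other 2 probe sets had 0.21 and 0.22.

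Several type I genes, named after their values were seen, were highest in PTIP KO 1, well above the other PTIP KO mice. Bst2, tetherin, which holds budding virions at the cell surface, read 9.37, 8.49 and 8.47 in PTIP KO and 8.28, 8.57 and 8.35 in PTIP+. Oas1a, a synthetase of 2-5A, read 7.86, 6.71 and 7.11 in PTIP KO and 6.80, 7.06 and 6.82 in PTIP+. Zbp1, a sensor of Z-form nucleic acid, read 6.24, 5.07 and 5.03 in PTIP KO and 5.19, 4.84 and 4.71 in PTIP+. In each of the 3, PTIP KO 2 lay below the highest PTIP+ mouse, and the differences of 0.38, 0.33 and 0.53 were 0.08, 0.02 and 0.13 without PTIP KO 1. Ifit3, another RNA-binding Ifit protein, had 0.23 with all mice and -0.01 without PTIP KO 1. The 5 lower type I genes, all named for that sign, were Eif2ak2, the RNA-activated kinase PKR, at -0.10, Trim25, the ubiquitin ligase of RIG-I, at -0.09, Rsad2, viperin, at -0.03, Mx1 and Ifitm2. All 3 Eif2ak2 and all 3 Trim25 probe sets were lower by sign.

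Receptors and transcription factors showed no shared direction, with 5 of 9 higher, 4 lower and a median difference of 0.03. Ifnar2, the signalling chain of the type I receptor, read 8.71, 8.65 and 8.80 in PTIP KO and 9.003, 9.34 and 9.15 in PTIP+. It was the single member with all PTIP KO mice below all PTIP+ mice, at a difference of -0.45 (SE 0.12, limma adjusted p = 0.318), and -0.44 without PTIP KO 1. Its other probe sets, at a mean near 6, had 0.11 and -0.12 with overlapping groups. Ifnar1, the partner chain, named beyond the rule, had 0.03 (95% interval -0.33 to 0.40), and Ifngr1, the ligand-binding chain for interferon-gamma, had -0.07 (95% interval -0.48 to 0.35). Irf7, the factor that amplifies type I interferon production, read 8.10, 7.09 and 7.41 in PTIP KO and 6.64, 7.26 and 7.02 in PTIP+. PTIP KO 1 was highest and PTIP KO 2 lay inside the PTIP+ range, with a difference of 0.56 (SE 0.27, limma adjusted p = 0.623), or 0.27 without PTIP KO 1.

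Stat2 and Irf9, the DNA-binding complex of type I signalling, had 0.16 (95% interval -0.37 to 0.68) and -0.04 (95% interval -0.39 to 0.31). Stat2 read 7.16, 7.28 and 7.17 in PTIP KO and 7.53, 6.58 and 7.04 in PTIP+, so the spread lay in PTIP+. Stat3, the factor of interleukin-6 type cytokines and the brightest gene of this group, averaged 9.83 ± 0.05 in PTIP KO and 9.86 ± 0.11 in PTIP+ (SD, n = 3 each). Irf3, which starts interferon production after nucleic acid sensing, had 0.10, and -0.03 without PTIP KO 1. The signs of Stat3 and Irf9 turned to slightly higher after median centring of the arrays, so neither has a settled direction. Centring shifts the differences of all genes alike, and 64.8% of all genes were higher by sign after it, against 55.1% before.

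Means over each group were formed for every mouse, as the average over genes of the log2 value minus that gene's mean over the 6 mice. For the interferon-gamma-inducible group these were 0.31, 0.07 and 0.10 in PTIP KO 1, 2 and 3 and -0.12, -0.11 and -0.24 in PTIP+ 1, 2 and 3. All PTIP KO mice were above all PTIP+ mice, with a difference of 0.32, or 0.24 without PTIP KO 1. The antigen presentation means were 0.44, -0.06 and 0.04 in PTIP KO and -0.15, -0.11 and -0.16 in PTIP+. These also did not overlap, and the difference of 0.28 was 0.13 without PTIP KO 1. The type I means were 0.28, -0.03 and 0.08 in PTIP KO and -0.11, -0.03 and -0.18 in PTIP+, where PTIP KO 2 lay level with PTIP+ 2. Their difference was 0.22, and 0.13 without PTIP KO 1. Receptors and transcription factors had 0.07, -0.03 and 0.01 in PTIP KO and 0.02, -0.02 and -0.04 in PTIP+. These groups overlapped, with only PTIP KO 1 above all PTIP+ mice. The same mean over all genes differed by 0.02. Since the members were chosen with results known, these means carry no test.

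**Figure D3:**
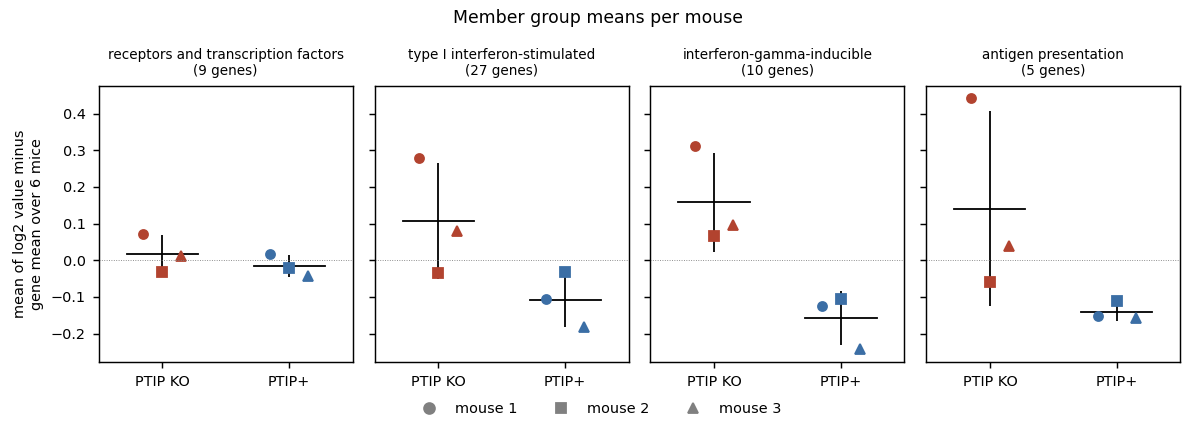
Mean over the genes of each group of the log2 value minus that gene's mean over 6 mice, on the y axis, PTIP KO left and PTIP+ right in each panel. Symbols mark mice 1 to 3 of each group, lines the mean and bars the SD (n = 3 each). PTIP KO 1 is the highest mouse in all 4 panels, and the groups are separate in the interferon-gamma-inducible and antigen presentation panels.

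PTIP KO 1 was the highest of the 6 mice for 25 of the 51 members (22.1% of all genes), among them 7 of 10 interferon-gamma-inducible and 13 of 27 type I genes. PTIP+ 3 was the highest for none of the 51 (9.12% of all genes) and the lowest for 17 (16.6% of all genes), and PTIP+ 1 was also the lowest for 17 (20.3% of all genes). By a limit chosen after the values were seen, PTIP KO 1 stood over 0.5 above the mean of the other PTIP KO mice for 11 members: Irf7, Ifit3, Oas1a, Oas2, Dhx58, Bst2, Zbp1, Igtp, Tap1, Tap2 and Nlrc5. Of all genes 4.69% did so. Without PTIP KO 1, 38 of the 41 members that were higher by sign stayed so. Irf3, Ifit3 and Usp18 turned lower, and Irf9 and Rsad2 turned higher. In that comparison 6 members were higher at an unadjusted limma p under 0.05 (4.5% of all genes were) and none passed. PTIP KO 3 and the 3 PTIP+ arrays carry description numbers with the same leading digits, and what these numbers mark is not stated. Within those 4 arrays 41 members were higher by sign (55.6% of all genes were). The mean difference of the members there was 0.17, against 0.21 over all 6 arrays.

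**Figure D4:**
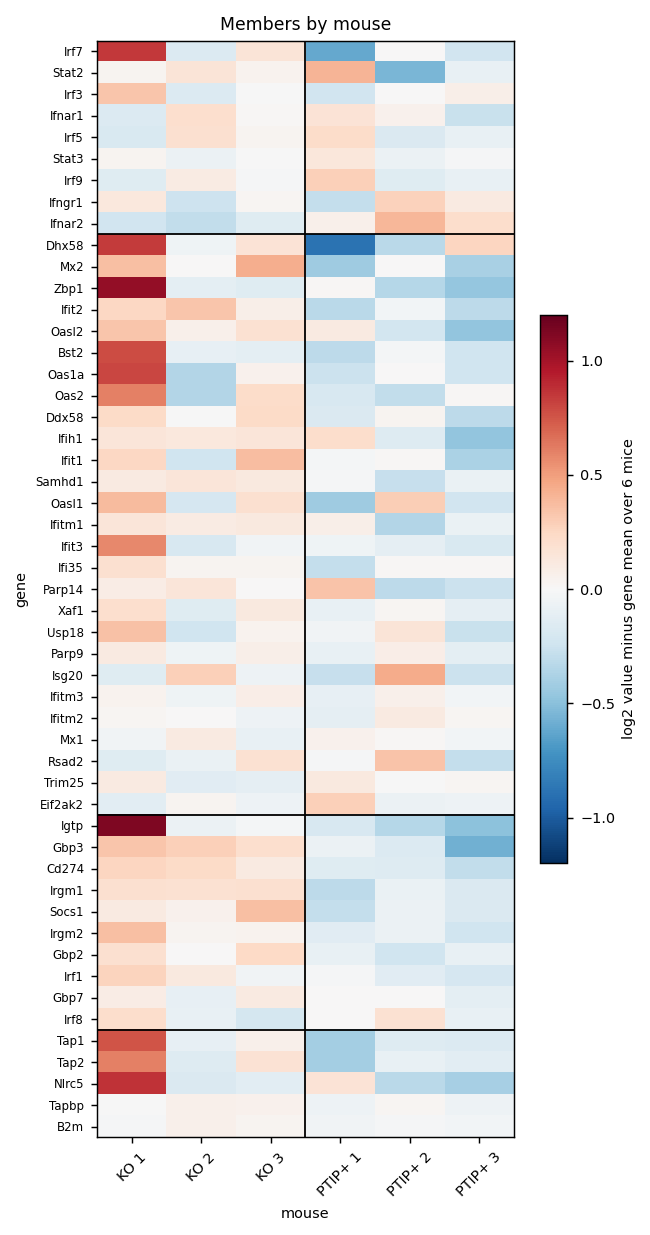
Heat map of the 51 members (rows, in the order receptors and factors, type I, interferon-gamma-inducible, antigen presentation) by mouse (columns), coloured by log2 value minus the gene's mean over 6 mice. The darkest red cells are in the PTIP KO 1 column, such as Igtp and Zbp1, while Gbp3, Cd274 and Irgm1 are coloured alike in all 3 PTIP KO mice.

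Of the 51 members, 22 had further probe sets, 38 in all. None of the 38 passed with limma, none had an unadjusted p under 0.05, and 28 had the sign of the brightest one. Of the 22 further probe sets above the median level, 18 had the same sign. The brightest probe sets of Ifi35 and Trim25 end in _s_at and that of Irf3 in _x_at, endings used where probes can match related sequences.

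Other interferon-stimulated genes were taken from a list of 40 outside the members. Of 33 measured, 24 were higher and 9 lower, and the median difference was 0.14. At an unadjusted limma p under 0.05, 4 were higher (5.47% of all genes) and 0 lower (3.8% of all genes), and none passed. PTIP KO 1 was the highest mouse for 17 of the 33. The mean per mouse was 0.26, -0.03 and 0.02 in PTIP KO and -0.13, 0.02 and -0.14 in PTIP+, so only PTIP KO 1 lay clear of PTIP+. The difference of these means was 0.16, and 0.08 without PTIP KO 1. Ifit1bl1, of the Ifit family, read 8.93, 9.32 and 9.21 in PTIP KO and 8.39, 8.54 and 8.49 in PTIP+, a difference of 0.68 (SE 0.13, limma adjusted p = 0.160). Lgals3bp, a secreted galectin-binding glycoprotein, had 0.62 (limma adjusted p = 0.267). Cxcl10, a chemokine that attracts activated T cells, read 5.68, 5.10 and 4.83 in PTIP KO and 3.94, 4.63 and 4.18 in PTIP+. Its difference was 0.96 (limma adjusted p = 0.302), and in every mouse but PTIP KO 1 it lay below the median level of 5.19. All PTIP KO mice lay above all PTIP+ mice for each of the 3. Of 10 measured signalling genes outside the members, 4 were higher and 6 lower. Tyk2 and Jak1, the Janus kinases of the type I receptor, had 0.37 and 0.35, each with separate groups, and Irf4, a factor of lymphocytes and macrophages, had -0.55. Of 12 nucleic acid sensing genes and adaptors 7 were higher and 5 lower. Tlr7, an endosomal RNA sensor of immune cells, read 5.10, 5.90 and 5.58 in PTIP KO and 6.24, 6.15 and 6.19 in PTIP+, a difference of -0.67 (limma adjusted p = 0.352). Ticam1, the adaptor of Toll-like receptor 3, had 0.26 and Adar, an RNA-editing deaminase, 0.31. No gene of either list passed.

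Markers of immune cells differed between the mice in 2 ways, and their part in the results above was not tested. In whole tissue, fewer cells of a type and less RNA per cell cannot be told apart. All 10 macrophage and monocyte markers were lower in PTIP KO by sign, with a median of -0.35, 3 of them at an unadjusted limma p under 0.05 and none passing. Mrc1, a scavenger receptor of resident macrophages, read 9.16, 9.02 and 9.37 in PTIP KO and 9.83, 9.64 and 9.60 in PTIP+, a difference of -0.51 (limma adjusted p = 0.288). The summed linear level of the 10 ran from 4142 to 5723 in PTIP KO and from 5935 to 6516 in PTIP+, while most interferon-induced members were higher in PTIP KO. Among the PTIP KO mice the mean of these markers was 0.19, -0.49 and -0.18, so mouse 1 was highest and mouse 2 lowest, as in the 4 member groups. In PTIP+ it was 0.13, 0.26 and 0.09. General leukocyte markers were lower for all 6 genes, with summed levels from 1655 to 2305 in PTIP KO and from 2188 to 2374 in PTIP+.

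T and NK cell markers were mostly highest in PTIP KO 1, and B cell markers were not. The mean of 14 T, NK and B cell markers was 0.43, -0.14 and -0.15 in PTIP KO and 0.02, -0.25 and 0.08 in PTIP+. PTIP KO 1 was the highest mouse for 8 of the 11 T and NK markers and 0 of the 3 B cell markers (22.1% of all genes). Of the other 3 T and NK markers, Cd4 and Gzmb were highest in PTIP+ 1, and Prf1, perforin, was lowest in PTIP KO 1, at 8.61. The B cell genes Cd79b and Ms4a1 were lower in PTIP KO by sign, at -0.46 and -0.30. The summed linear level of all 14 markers ran from 636 to 714 in PTIP KO and from 589 to 673 in PTIP+. All but Prf1, 13 of the 14, lay below the median level of all probe sets. Prf1, with means of 8.73 in PTIP KO and 8.70 in PTIP+, therefore weighs most in that sum. Nkg7 and Cd3g are given for their high values in that mouse, chosen after these were seen. Nkg7, a granule protein of NK and T cells, read 5.92, 5.00 and 4.23 in PTIP KO and 4.17, 4.12 and 4.75 in PTIP+. Cd3g, a chain of the T cell receptor complex, read 4.83, 3.06 and 3.17 in PTIP KO and 2.91, 3.09 and 3.84 in PTIP+. Siglech, the defining marker of plasmacytoid dendritic cells, was dim at 4.13 in PTIP KO and 4.19 in PTIP+. Of the other marker lists, neutrophils had a median difference of 0.01, endothelium 0.10, fibroblasts 0.03, smooth muscle with pericytes 0.14 and fat 0.13. Plasmacytoid dendritic cell genes had -0.05 and the 3 measured blood genes -0.32. No gene of these lists passed. The mean of the 4 measured fat markers was also highest in PTIP KO 1, at 0.40. That mouse was the highest for 3 of the 4, and all 4 lay below the median level of all probe sets.

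**Figure D5:**
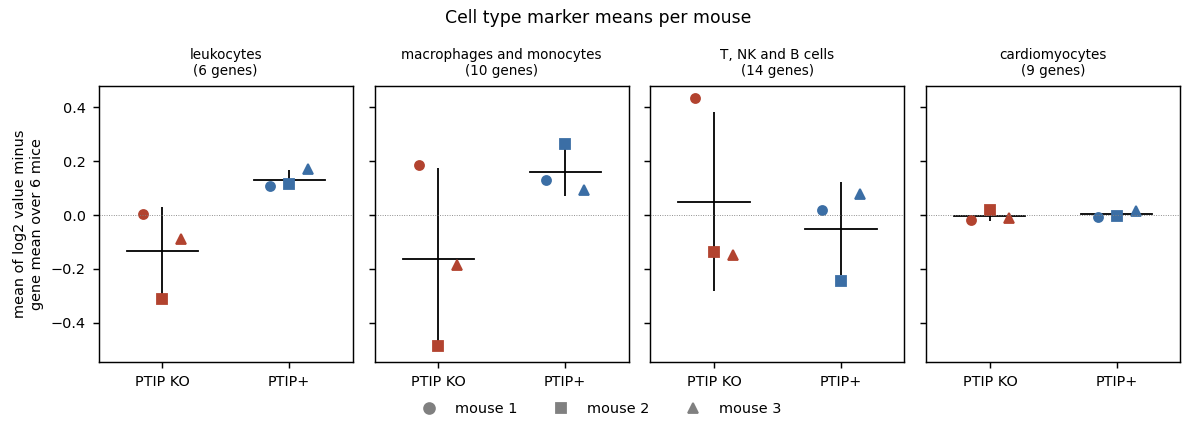
Mean per mouse of 4 lists of cell type markers, on the y axis as log2 value minus the gene's mean over 6 mice, PTIP KO left and PTIP+ right, with the mean as a line and the SD as a bar (n = 3 each). Leukocyte markers are lower in all 3 PTIP KO mice than in any PTIP+ mouse, and macrophage markers are so in PTIP KO 2 and 3 only. The mean of T, NK and B cell markers is highest in PTIP KO 1 at 0.43, and cardiomyocyte markers stay within 0.03 of 0.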

How the data were processed

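The deposited values are log2 expression values per Affymetrix probe set, made by the authors with RMA, per the submitters' processing notes. No version is given there, and log base 2 was taken from the span of the values (1.36 to 14.3). RMA forces the arrays to a common distribution, so a change in total RNA is not visible, and it compresses differences of dim probe sets. Per the labels' protocols, target was made with a NuGen Ovation kit. Of 45101 probe sets, 64 controls were left out. The platform annotation tied 34945 to 1 gene and 932 to several, and did not list 9160. Symbols were updated by Entrez identifier in a RefSeq table (34741 matched). A gene was represented by its brightest probe set over all 6 arrays. Differences (PTIP KO minus PTIP+) were tested with limma 3.58.1 in R 4.3.3, two-sided, adjusted by Benjamini-Hochberg over 45037 probe sets, and an adjusted p under 0.05 passed. The fit was checked on simulated data. The members and all gene lists were chosen with earlier results of these data known. In each group the text names the 6 members with the smallest p (all 5 for antigen presentation) and those with the highest and lowest level, in the pathway lists up to 3 with the smallest p, and says where it goes beyond this. Alternatives were other variance models, array weights, a filter on dim probe sets, renewed scaling, other probe sets per gene, a replicate block, and fewer arrays. Only the titles number the mice of a group, so p-values measure the spread between these samples. The number of mice limits the precision that arrays give.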

Additional observations from a re-analysis of the deposited data

How the results depend on the processing

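No member passed with limma under any alternative, including an adjusted p under 0.10, and the 26 named members had adjusted p between 0.161 and 1.00 there. Over all probe sets 86 passed, against 190 with a variance trend and robust prior, 204 with array weights, 196 at an adjusted p under 0.10, 0 on the 4 arrays whose description numbers share their leading digits (PTIP KO 3 and all PTIP+), and 0 to 21 with 1 mouse left out (0 without PTIP KO 1 or PTIP+ 2). The cause was not tested. Paxip1, with 3 probe sets passing, had 0 on those 4 arrays and 0 whichever mouse was left out. Members higher at an unadjusted p under 0.05, 7 with all arrays, numbered 11 with array weights, 15 with median centring, 2 on the 4 arrays and 5 to 15 with 1 mouse left out (15 without PTIP KO 2, 12 without PTIP+ 1). The share of all genes so called was 5.47% with all arrays, 7.22% with array weights, 6.98% with centring, 2.69% on the 4 arrays, 4.68% without PTIP KO 2 and 6.55% without PTIP+ 1. The 1 lower member became 0 on the 4 arrays and with the mean of all probe sets. With 1 mouse left out, the group differences ran from 0.13 to 0.38 for antigen presentation, 0.13 to 0.29 for type I, 0.24 to 0.36 for interferon-gamma and 0.13 to 0.27 for all members, each lowest without PTIP KO 1. The receptor and factor difference, 0.03, was -0.013 with the most variable probe set of each gene and 0.0053 to 0.057 with 1 mouse left out. Signs turned for Stat3 (0.0013 with array weights, 0.012 with centring), Irf9 (0.049 and 0.00036) and Mx1 (0.0043 with renewed quantile normalization, 0.020 with centring). Because centring moves the differences of all genes alike, the share of all genes higher by sign rose with it from 55.1% to 64.8%. With 1 mouse left out, signs also turned within Stat3 (-0.075 to 0.030), Irf9 (-0.12 to 0.093), Mx1 (-0.080 to 0.019), Irf3 (-0.035 to 0.21), Ifngr1 (-0.23 to 0.056) and Stat2 (-0.077 to 0.40).

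With the replicate number as a block, 0 probe sets passed, 0 of them of Paxip1. There 8 members were higher at an unadjusted p under 0.05 (4.21% of all genes were). Same-numbered mice did not deviate together (correlations of -0.15, -0.08 and -0.01), and differently numbered mice ran from -0.18 to 0.20. These correlations do not show that the numbers pair the samples, and with 3 mice a group they cannot exclude it.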
